A study of Mus musculus with 9 samples.

Results

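Loss of Prmt1 in haematopoietic stem and progenitor cells was compared with wild type by chromatin accessibility at autosomal regions. The regions described are the 108 whose peak was strong in both libraries of one genotype and outside the compared list in both libraries of the other, 28 closed and 80 opened in PRMT1_KO, together with the rank shifts at 17915 regions that had a peak in all 4 libraries. The 4 libraries belong to a series of 9 ATAC-seq libraries of mouse LSK cells, the lineage-negative, Sca-1-positive, Kit-positive fraction of bone marrow that holds the haematopoietic stem cells. ATAC-seq marks open DNA by letting the Tn5 transposase insert adapters into it.

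The groups were WT (n = 2) and PRMT1_KO (n = 2), and Bcat_KO (n = 2), HOXA9_KO (n = 2) and dKO (n = 1, β-catenin and Hoxa9) are used only to place the regions. The sample titles write KO, the genotype tags write knockdown, and the series text places the Prmt1-deficient LSK cells in mice that had received a primary transplant. No source used here gives the allele, the Cre or other agent, the age, the sex or the strain, or says whether the WT cells came from transplants. Nothing says either that replicates came from separate animals, so p-values measure the spread between these libraries, which may be technical.

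PRMT1 is the main enzyme of mammalian cells that puts asymmetric dimethyl groups on arginine, both on histone H4 and on many RNA-binding, signalling and DNA-repair proteins. Methylated H4 arginine is generally associated with active promoters, where it is read by other chromatin proteins. In blood, PRMT1 is known for methylating RUNX1 and for acting in leukaemias with MLL fusions. A peak in ATAC-seq marks DNA open to the transposase, often at a promoter or an enhancer, and says nothing by itself about transcription.

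Each member was found by ranks, because the deposited lists give peaks and not reads per region. In each library the autosomal peaks were ranked by the authors' −log10 p, and every list was cut to 27536 peaks, the length of the shortest (N). Peaks that shared 1 bp were merged, which gave 55828 regions from the full lists. A region was closed when it was in the top 13768 (N/2) of both WT libraries with no top-N peak in either PRMT1_KO library, and opened in the reverse case. Of 11532 regions in the top N/2 of both WT libraries, 0.243% were closed, and of 11926 in the top N/2 of both PRMT1_KO libraries, 0.671% were opened. These counts follow from the rule and carry no test. The values below are the authors' fold over background at the strongest summit of a region, unless a rank is named.

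The libraries differed between the genotypes in more than the regions below. The PRMT1_KO lists held 43531 and 38981 autosomal peaks and the WT lists 34583 and 27536, a difference with a two-sided exact permutation p of 0.33, the smallest that 2 against 2 allows. The Bcat_KO lists held 42260 and 44412 and the HOXA9_KO lists 38961 and 40350, also above both WT lists. Background depth, recovered from whole summit reads, was 11.2 and 10.9 reads per kb in PRMT1_KO against 7.38 and 6.29 in WT. Both PRMT1_KO libraries had 12 peaks on chromosome Y below 90 Mb and none at Xist, while both WT libraries had 0 such Y peaks and 2 at Xist, so sex and genotype cannot be told apart here, on autosomes too, and the strain of either group is not given. Of the 7 LSK marker genes fixed for the check, 3 (Kit, Cd34 and Flt3) were open at an end of the gene in each of the 4 libraries. Among markers of mature lineages, Cd3e, Cd8a, Ms4a1 and Ly6g had no gene-end peak in any of the 4, and Cd4 had weak ones, with folds of 3.95 and 3.99 in WT and 4.11 and 4.33 in PRMT1_KO. Of the markers of stroma and endothelium 4 of 5 were open at a gene end in all 4 libraries. Col1a1 had folds of 7.10 and 6.03 in WT and 5.19 and 4.40 in PRMT1_KO. Kdr went the other way in fold, with 7.63 and 8.54 in WT and 8.99 and 9.63 in PRMT1_KO, though its ranks overlapped. At Col1a2 and Pdgfrb the folds overlapped between the genotypes. By rank, Col1a1 was lower in PRMT1_KO without overlap, with 13197 and 15483 in WT and 28112 and 31517 in PRMT1_KO. Pdgfrb was lower too, with ranks of 16784 and 21592 in WT and 27443 and 23992 in PRMT1_KO. The ranks of Col1a2 overlapped. The part of other cells in the results was not tested.

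The promoters below carry the start-site results and are shown so that the sequence can be read beside the ranks. They come from RefSeq on GRCm38.p6, from 250 bases before to 50 after the gene start, 5′ to 3′ on the gene's strand. Ccdc6 (chr10:70096871-70097170, plus strand) and Dennd1c (chr17:57078449-57078748, minus strand) lay in regions that ranked higher in PRMT1_KO. Itgb1 (chr8:128685404-128685703, plus strand) and Zfp970 (chr2:177464492-177464791, plus strand) lay in regions that ranked lower, Il18rap (chr1:40515112-40515411, plus strand) in an opened region, and Prmt1 (chr7:44986371-44986670, minus strand) is the targeted gene. Capitals mark matches to any of 8 searched motifs, on either strand, and a match is only a match of letters. No closed region held the whole window of a named coding gene.
Ccdc6: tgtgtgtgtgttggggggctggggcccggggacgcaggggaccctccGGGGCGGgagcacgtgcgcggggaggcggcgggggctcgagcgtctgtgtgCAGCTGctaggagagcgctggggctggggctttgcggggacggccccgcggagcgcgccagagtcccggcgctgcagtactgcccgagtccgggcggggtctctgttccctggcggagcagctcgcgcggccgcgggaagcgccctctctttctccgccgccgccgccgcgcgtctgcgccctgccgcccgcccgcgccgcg
Dennd1c: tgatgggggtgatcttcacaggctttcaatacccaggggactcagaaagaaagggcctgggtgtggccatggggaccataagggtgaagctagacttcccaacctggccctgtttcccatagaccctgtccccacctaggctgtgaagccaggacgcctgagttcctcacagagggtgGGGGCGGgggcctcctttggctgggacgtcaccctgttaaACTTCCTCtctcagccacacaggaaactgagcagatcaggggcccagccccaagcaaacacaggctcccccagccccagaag
Itgb1: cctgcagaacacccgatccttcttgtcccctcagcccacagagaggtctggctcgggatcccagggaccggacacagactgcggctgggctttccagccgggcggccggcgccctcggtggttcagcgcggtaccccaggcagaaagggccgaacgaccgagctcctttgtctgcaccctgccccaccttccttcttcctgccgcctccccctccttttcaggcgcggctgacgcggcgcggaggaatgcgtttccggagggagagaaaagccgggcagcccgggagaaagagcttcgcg
Zfp970: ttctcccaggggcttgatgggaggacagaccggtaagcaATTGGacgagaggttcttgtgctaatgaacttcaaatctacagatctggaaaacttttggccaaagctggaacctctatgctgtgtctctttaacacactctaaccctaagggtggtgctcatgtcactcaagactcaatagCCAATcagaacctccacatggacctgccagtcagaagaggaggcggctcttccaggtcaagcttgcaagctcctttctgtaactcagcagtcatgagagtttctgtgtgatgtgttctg
Il18rap: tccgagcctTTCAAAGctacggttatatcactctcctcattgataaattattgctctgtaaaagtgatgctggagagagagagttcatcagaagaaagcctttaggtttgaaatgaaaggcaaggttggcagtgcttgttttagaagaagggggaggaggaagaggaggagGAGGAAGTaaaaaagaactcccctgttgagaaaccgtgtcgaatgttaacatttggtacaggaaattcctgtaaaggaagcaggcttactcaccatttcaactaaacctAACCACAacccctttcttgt
Prmt1: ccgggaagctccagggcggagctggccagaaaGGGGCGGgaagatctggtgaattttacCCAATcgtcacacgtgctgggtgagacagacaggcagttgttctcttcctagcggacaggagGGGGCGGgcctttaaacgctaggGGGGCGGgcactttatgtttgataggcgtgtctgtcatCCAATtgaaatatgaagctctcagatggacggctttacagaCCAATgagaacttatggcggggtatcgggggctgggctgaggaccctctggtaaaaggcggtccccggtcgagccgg

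The motifs searched were AGATAA for the GATA factors, ACTTCCG for ETS factors, GAGGAAGT for PU.1, TGTGGTT for RUNX factors, CTTTGAA for TCF and LEF factors, CAGCTG (an E-box), CCAAT for NF-Y and GGGGCGG for SP and KLF factors. No motif contains another, and matches that overlap in a window share their capitals. The Ccdc6 window has 44 CpG dinucleotides and a GC content of 78.3%, with an SP/KLF match and an E-box match. The Itgb1 window, with 27 CpG and 67.3% GC, holds none of the 8 motifs. The Prmt1 window has 3 NF-Y and 3 SP/KLF matches. The Il18rap window, with 4 CpG and 42.3% GC, holds PU.1, RUNX and TCF/LEF matches and no SP/KLF or NF-Y match.

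Over the promoter windows in regions that ranked higher, CCAAT was in 10 of 16 (62.5%) and GGGGCGG in 10 of 16 (62.5%). In regions that ranked lower they were in 4 of 18 (22.2%) and 5 of 18 (27.8%). Among all 10659 windows in shared regions the shares were 38.7% and 47.0%, and among all 31396 autosomal windows 37.3% and 23.4%. These shares are descriptions of few windows, with no test. ACTTCCG was in 2 of 16 windows in regions that ranked higher and in 4 of 18 in regions that ranked lower, beside 15.0% in shared regions.

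Opened regions were the larger set, and most of them were away from gene ends. Of the 80, 40 lay inside gene bodies (50%, against 26.0% of the regions strong in both PRMT1_KO libraries) and 11 within 1 kb of a gene end (13.8% against 60.9%). A further 23 lay within 50 kb of a gene and 6 farther away. They were narrow, with a median width of 367.5 bp against 859 bp, and 8 were under 200 bp. In the full WT lists 67 of the 80 had no peak at all, and the other 13 had a weak peak in WT replicate 1 only, with folds of 2.96 to 4.25.

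In PRMT1_KO the folds of the opened regions ran from 1.97 to 44.3 in replicate 1 (median 9.81) and from 2.10 to 49.2 in replicate 2 (median 9.48). At the same fold, the depth of the WT libraries would have given a median of 26.4 and 22.1 summit reads. That would have passed the top-N limit in both WT libraries for all 79 regions where it could be computed. The regions were chosen for their strength in PRMT1_KO, so this projection reuses the values that chose them. The part of depth was not tested.

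The strongest opened region lay 14.9 kb past the end of Dpy19l2, a gene needed for shaping the sperm head (chr9:24542014-24542160). It reached folds of 44.3 and 49.2 in PRMT1_KO and had no peak in either WT library. Next came a region in the body of 2210408I21Rik (20.2 and 22.5) and one 7.32 kb past the end of Tra2a, a splicing factor (19.6 and 19.3; chr6:49236456-49236605). All 3 were under 200 bp wide, with ranks of 28 and 21, 2794 and 1570, and 2762 and 2454 in PRMT1_KO. No WT library had a peak at any of them.

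The region near Mir101c (chr9:3022063-3022244) stood apart from the other opened regions in kind. It had 624 and 561 summit reads in PRMT1_KO but folds of only 1.97 and 2.10, so its local background was high. Reads from repeated copies may be shared there, and its value is uncertain.

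Opened regions in gene bodies included signalling and chromatin genes. Phlpp1, a phosphatase that acts on AKT, had folds of 11.7 and 13.9 in PRMT1_KO, and Wnk2, a kinase, had 11.2 and 11.5. Chd7, a chromatin remodeller, had 11.7 and 14.1 (chr4:8811093-8811419). Fbxw4, an F-box protein, had 14.0 and 18.8. Fyb2, an adaptor protein, had 12.8 and 15.0 in PRMT1_KO and a weak peak of 3.95 in WT replicate 1. Sil1 and Uchl5, a co-chaperone of the endoplasmic reticulum and a proteasome-bound deubiquitinase, had 13.1 and 10.5 and 12.3 and 11.9. Vmp1, an autophagy protein, had 12.5 and 9.28, and Nkain3 had 11.5 and 11.9. None of these except Fyb2 had a WT peak.

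The other opened regions of the 20 with the best mean rank lay near or at gene ends. P4ha2, a collagen prolyl hydroxylase, had folds of 10.9 and 13.3 at a region 8.78 kb past its end. Oacyl had 7.69 and 10.1 at 1.63 kb, and Dnttip2 7.63 and 8.78 at 5.51 kb past its end. Gm15448 had 12.3 and 13.6 and Gm39692 11.9 and 9.95 at annotated gene starts. Pan3, a subunit of a deadenylase, had 6.31 and 6.90 within 1 kb of an annotated end. None of these had a peak in either WT library.

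Lef1 and Axin1, both of the Wnt pathway, were among the opened regions at genes of the fixed lists. Lef1, a transcription factor of Wnt signalling and of lymphoid development, had folds of 12.2 and 10.1 at a region 1.10 kb from a start in the promoter table (chr3:131157398-131157842). Axin1, a scaffold of the complex that degrades β-catenin, had 11.7 and 9.47 inside its body (chr17:26167990-26168351). Rfc3, part of the complex that loads the sliding clamp at replication forks, had 8.99 and 9.48 at its 3′ end, and Bax, a pro-apoptotic target of p53, had 5.79 and 5.83 at its 3′ end. Neither WT library had a peak at any of these 4 regions.

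A few further opened regions are named here after their values were seen. Il18rap, a subunit of the interleukin-18 receptor, had folds of 9.98 and 11.1 in PRMT1_KO and 3.83 in WT replicate 1 at its start, the promoter printed above. Lyn, a Src-family kinase, had 9.80 and 9.28, Lif, a cytokine, 9.08 and 9.18 at 5.86 kb before the gene, and Atf3, a stress-induced transcription factor, 9.05 and 7.25 at 17.8 kb before it. Jmjd1c, a histone demethylase homologue, had 6.26 and 7.52, and Hey1, a Notch target, 7.66 and 8.05. Apart from Il18rap these had no WT peak.

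**Figure D1:**
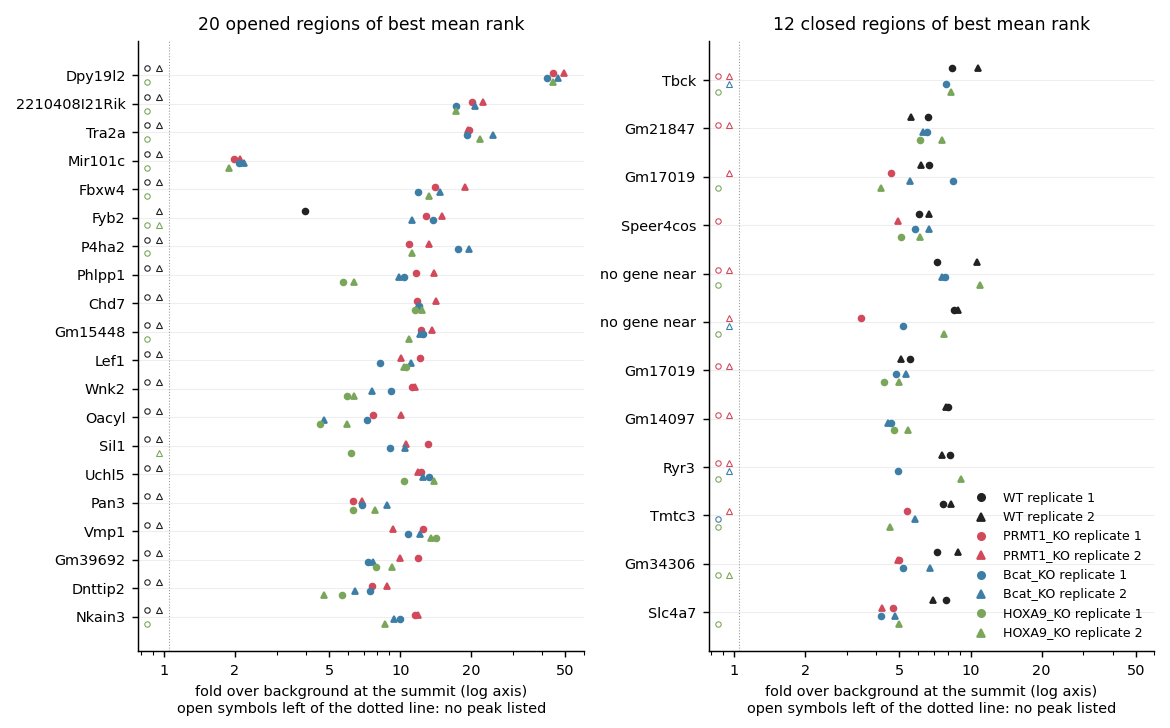
Fold over background (log axis) in each of 8 libraries at the 20 opened and 12 closed regions with the best mean rank in the genotype where they were open. Filled symbols are listed peaks, open symbols mark libraries with no peak, and circles and triangles are replicates 1 and 2; WT symbols are open at all the opened regions shown, except replicate 1 at Fyb2, and Dpy19l2 reaches 44.3 and 49.2 in PRMT1_KO.

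Closed regions were fewer and weaker. In WT replicate 1 their folds ran from 5.18 to 8.49 (median 7.62) and in WT replicate 2 from 5.10 to 10.8 (median 6.92). Their best ranks in WT were 7177 and 6245, while the opened regions reached ranks of 28 and 21 in PRMT1_KO. Of the 28, 8 had no peak in either full PRMT1_KO list, 9 had a weak peak in 1 of them and 11 in both, with folds of 3.00 to 5.38 in replicate 1 and 3.30 to 5.12 in replicate 2. At the fold seen in WT, the deeper PRMT1_KO libraries would have put all 28 inside the top N. This projection too reuses the values that chose the regions, and the part of depth was not tested.

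By place, 8 of the closed regions were at a gene end (28.6%, against 67.5% of the regions strong in both WT libraries), 8 in gene bodies, 9 within 50 kb and 3 farther away. Their median width was 549.5 bp against 894 bp. They lay on 15 of the 19 autosomes, and the opened regions on all 19.

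Tbck, which codes for a protein with a Rab GTPase-activating domain, held the closed region of best rank (chr3:132747152-132747622). Its folds were 8.37 and 10.8 in WT, and no PRMT1_KO library had a peak. A region over 50 kb from any gene (chr1:144406579-144407077) had 7.22 and 10.6 in WT, Gm14097 had 8.01 and 7.85, and Ryr3, a calcium release channel, 8.20 and 7.56. All of these had no peak in either PRMT1_KO list.

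At 4 other closed regions of the 12 with the best mean rank, at least 1 PRMT1_KO library had a weak peak. Tmtc3, an O-mannosyltransferase, had folds of 7.66 and 8.26 in WT and 5.38 in PRMT1_KO replicate 1, at 41.2 kb past the gene. Gm34306 had 7.23 and 8.86 in WT and 4.99 and 4.94 in PRMT1_KO. Slc4a7, a sodium bicarbonate cotransporter, had 7.87 and 6.91 in WT and 4.69 and 4.2 in PRMT1_KO at its 3′ end. A region far from any gene on chromosome 18 had 8.49 and 8.86 in WT and 3.46 in PRMT1_KO replicate 1.

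The closed regions at the starts of Mri1, Sptlc1 and Hs3st5, named after their values were seen, had weak peaks in both PRMT1_KO libraries. Mri1, an enzyme of methionine salvage, had folds of 7.75 and 6.64 in WT and 5.05 and 4.21 in PRMT1_KO. Sptlc1, a subunit of serine palmitoyltransferase, had 7.66 and 7.35 against 4.99 and 4.53. Hs3st5, a heparan sulphate sulphotransferase, had 6.57 and 6.92 against 4.80 and 5.12. Gm46266, also closed at its start, had 7.58 and 7.88 in WT and no PRMT1_KO peak. At the first 3 of these starts both PRMT1_KO values were below both WT values, as the rule favours. No closed region lay at a gene of the 16 fixed lists.

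Another 4 of the 12 best closed regions lay within 675 kb on chromosome 5, among near-identical genes of the Speer family, which are known from the testis. At Gm21847 the folds were 6.60 and 5.58 in WT with no PRMT1_KO peak. A region 7.02 kb before Gm17019 had 6.67 and 6.18 in WT and 4.61 in PRMT1_KO replicate 1, another 21 kb past it had 5.55 and 5.10 with no PRMT1_KO peak, and Speer4cos had 6.02 and 6.66 in WT and 4.94 in PRMT1_KO replicate 2. Reads from such copies can be placed on the wrong copy, so each region is uncertain by itself.

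Over the wider stretch, from 500 kb before the first to 500 kb past the last of these regions, 116 regions were merged from the 4 lists, chosen after seeing the 4 closed regions. WT replicates 1 and 2 listed a peak at 81 and 69 of them, and PRMT1_KO at 15 and 18. Bcat_KO listed 73 and 72 and HOXA9_KO 42 and 55 of these regions, and dKO, a much shorter list, 18. PRMT1_KO thus had the lowest counts of the 8 paired libraries.

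**Figure D2:**
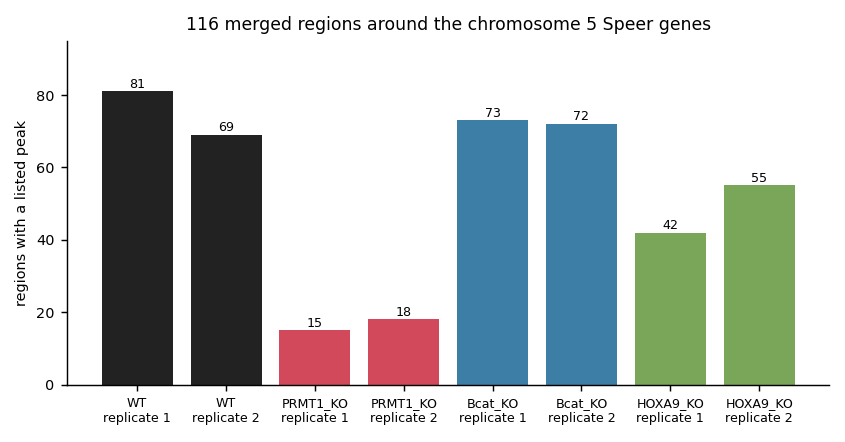
Number of the 116 merged regions around the chromosome 5 Speer genes that had a listed peak in each of 8 libraries (bars, coloured by genotype). WT listed 81 and 69 and PRMT1_KO 15 and 18, the lowest pair.

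The regions were then looked up in the mutants that share the same WT libraries, so that a peak missing only from WT can be seen as such. At the 80 opened regions Bcat_KO listed 76 and 77 peaks, HOXA9_KO 58 and 66, and dKO 2. Of the 80, 53 had a peak in all 4 Bcat_KO and HOXA9_KO libraries, and only 2 had one in none of them: a region far from any gene on chromosome 6 (chr6:114565417-114565712; PRMT1_KO folds 11.1 and 9.89) and one 36.5 kb from Gm6180 (9.60 and 10.1). Among all regions strong in both PRMT1_KO libraries, 98.7% to 99.9% had a peak in each of these 4 libraries and 54.7% in dKO. At the 28 closed regions Bcat_KO listed 21 and 21 peaks, HOXA9_KO 15 and 24, and dKO 7. Among all regions strong in both WT libraries, 99.3% to 99.8% had a peak in each Bcat_KO and HOXA9_KO library and 58.7% in dKO. Of the 28 closed regions, 11 had a peak in all 4 Bcat_KO and HOXA9_KO libraries. Only 1, over 50 kb from any gene on chromosome 13, had one in none of these 4.

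A library outside the comparison lacked, like WT, many of the strongest opened regions. HOXA9_KO replicate 1 had no peak at 22 of the 80, 13 of which had a peak in all 3 of the other paired mutant libraries. The 22 included 8 of the 10 opened regions of best rank: Dpy19l2, 2210408I21Rik, Tra2a, Mir101c, Fbxw4, Fyb2, P4ha2 and Gm15448. At Dpy19l2, Bcat_KO reached 41.8 and 46.7 and HOXA9_KO replicate 2 reached 44.2, while HOXA9_KO replicate 1 listed no peak. HOXA9_KO replicates 1 and 2 listed 15 and 16 peaks on chromosome Y below 90 Mb and Bcat_KO 13 and 12. PRMT1_KO listed 12 and 12 there and WT 0 and 0. At Xist, Bcat_KO listed 1 and 0 peaks and HOXA9_KO 0 and 0, against 2 and 2 in WT. The sources used here give neither sex nor strain for any library, and the part of either in the opened and closed regions was not tested.

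Near the limits of the rule the members graded into their neighbours. Gm34306 and Ifit1bl1 were the closed regions just inside the strength limit, with a weaker WT rank of 13753 and 13437, and regions at Scel and Gm29960 were just outside with 13799 and 13814. On the limit of absence, Hs3st5 and Mri1 were just inside, with a best PRMT1_KO rank of 27988 and 28021, and Gm32647 and Kazald1 just outside with 27168 and 27024. Among opened regions Rfc3 and Bax were just inside (13735 and 13695), and Macrod2 and Id3, an inhibitor of bHLH factors, just outside (13804 and 13857). Capza2 and Fyb2 were just inside the limit of absence, with WT replicate 1 ranks of 27707 and 28883, and Gm3587 and Airn just outside with 27292 and 27225.

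Some members lay close together. Within 1 Mb of another member were 10 of the 28 closed and 9 of the 80 opened regions, in 8 clusters. The 10 closed regions include the 4 among the Speer genes on chromosome 5. On chromosome 1, opened regions at Tbc1d8, Map4k4 and Il18rap spanned 1030 kb, and on chromosome 7 Saa3, an acute-phase protein, and Mrgpra9 were 493 kb apart. In 4 clusters a closed and an opened region were neighbours, such as Dock9, an exchange factor for Cdc42, and Timm8a2 within 333 kb.

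Rank shifts were then taken over the shared regions. At the 17915 regions with a top-N peak in all 4 libraries, ranks were turned into normal scores, on which a positive difference means a better rank in PRMT1_KO. The median absolute difference was 0.24 between the WT replicates and 0.23 between the PRMT1_KO replicates, beside 0.28 to 0.30 between single libraries of different genotypes. In limma with Benjamini-Hochberg adjustment, 65 regions ranked higher in PRMT1_KO (0.363%) and 28 lower (0.156%). The ranks of the groups did not overlap at 3903 regions that were higher (21.8%) and 4419 that were lower (24.7%).

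The calls rest on the model's link between the spread and the mean score. Without that link limma called 0 regions in either direction, with 1110 higher and 1200 lower at an unadjusted p under 0.05, and with peaks ranked by fold it called 4 higher and 2 lower. The counts also moved with single libraries, to 44 and 5 without WT replicate 2, 134 and 16 without WT replicate 1, 78 and 128 without PRMT1_KO replicate 1, and 77 and 132 without PRMT1_KO replicate 2. At all 65 regions called higher both PRMT1_KO folds were also above both WT folds. Of the 28 called lower, 17 had both PRMT1_KO folds below both WT folds and 11 had folds that overlapped. The shares of all shared regions with these fold patterns were not taken, so these counts do not bear on the calls. Folds could be higher in PRMT1_KO without a rank shift. At Gm14410 on chromosome 2 they were 21.2 and 22.2 in WT and 27.5 and 31.3 in PRMT1_KO, with a shift of −0.04.

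**Figure D3:**
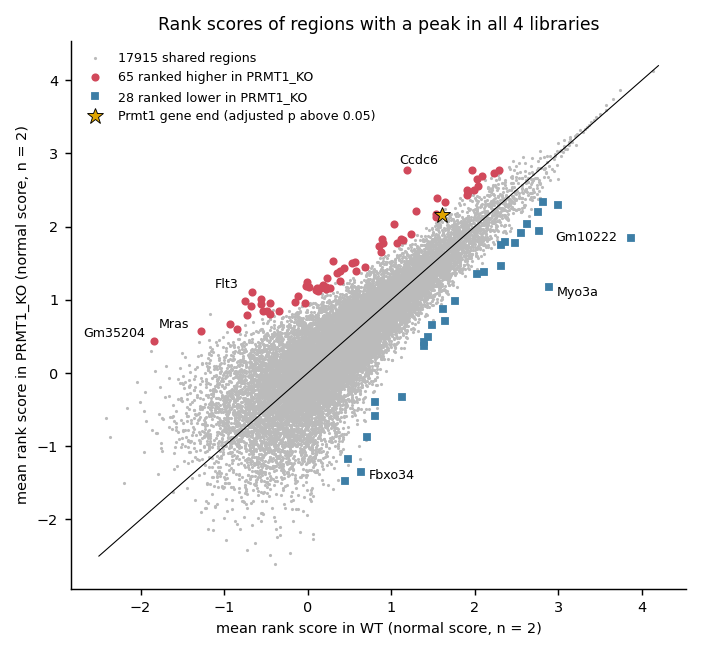
Mean rank score in PRMT1_KO against WT (normal scores, n = 2 each) at 17915 shared regions, with the diagonal as equal rank. The 65 regions called higher lie above it and the 28 called lower below it, and the Prmt1 gene end, with an adjusted p of 0.063, lies above it.

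Shifts differed by place. At the 9942 shared regions at gene ends the median shift was −0.09, against 0.09 in 5217 regions in gene bodies, 0.09 in 2496 within 50 kb of a gene and 0.02 in 260 farther away. Of the gene-end regions 14.9% were higher and 30.4% lower without overlap, and of the gene-body regions 30.5% were higher and 17.3% lower. The calls were 18 higher and 19 lower at gene ends, 31 and 5 in gene bodies, and 16 and 4 near genes. Among the N strongest peaks of each list, 44.9% and 45.6% were at a gene end in WT and 43.0% and 42.7% in PRMT1_KO, a difference of −2.39 percentage points (two-sided exact permutation p = 0.33, the smallest possible). The share was 43.5% and 42.9% in Bcat_KO and 44.2% and 43.3% in HOXA9_KO, also below both WT libraries. Peaks over 50 kb from a gene made up 1.95% and 2.05% in WT and 1.84% and 1.95% in PRMT1_KO (exact permutation p = 0.667).

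**Figure D4:**
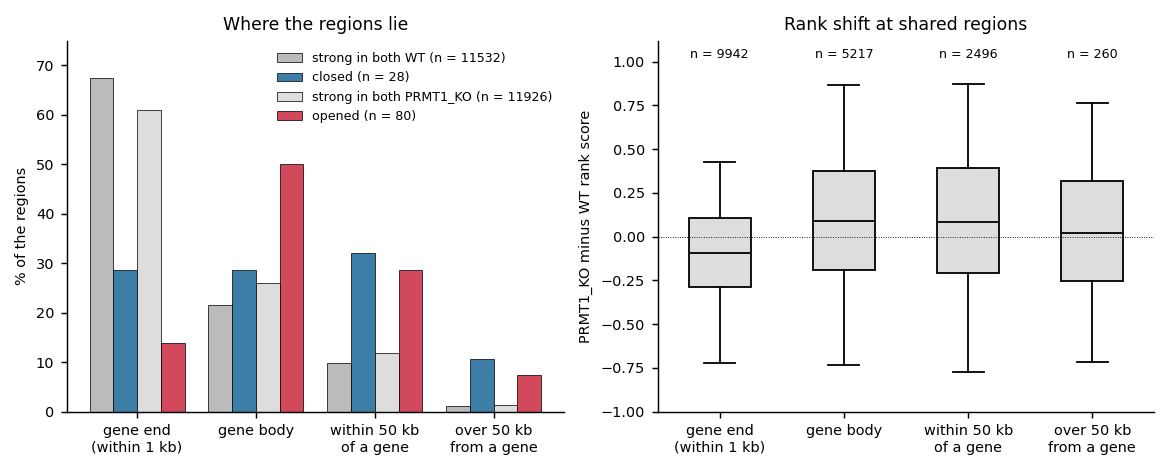
Left, percent of closed, opened and strong regions at each place relative to genes. Right, PRMT1_KO minus WT rank score at shared regions by place (line, median; box, quartiles; whiskers, 5 to 95%); the medians are −0.09 at gene ends and 0.09 in gene bodies.

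Of the 10 largest rises, 2 were at a gene start, those of Gm35204 and Ccdc6. At Flt3, the receptor tyrosine kinase of early lymphoid and myeloid progenitors, a region inside the gene body (chr5:147366184-147366806) had folds of 4.73 and 4.78 in WT and 10.8 and 14.1 in PRMT1_KO. Its ranks were 20895 and 20227 in WT and 5037 and 2609 in PRMT1_KO, with no overlap. The shift was 1.77 (SE 0.26, limma adjusted p = 0.00357). Adgrg3, an adhesion receptor of neutrophils, had ranks of 21252 and 21317 in WT and 5093 and 3837 in PRMT1_KO at a region 1.70 kb past its end (shift 1.74, SE 0.27, limma adjusted p = 0.00581).

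The rest of the 10 largest rises lay in or near the genes below, apart from Ccdc6. Stk10, a lymphocyte kinase, went from ranks of 21095 and 18041 in WT to 3448 and 5353 in PRMT1_KO (limma adjusted p = 0.0118). Wwox, an oxidoreductase known as a tumour suppressor, went from 17699 and 21323 to 5485 and 4071 (limma adjusted p = 0.0150), and Creb5, a transcription factor, from 23645 and 16833 to 3968 and 6133 at 7.39 kb past the gene. Mras, a GTPase of the Ras family, went from 26213 and 22416 to 5808 and 10167, and Rin3, an exchange factor for Rab5, from 16953 and 24090 to 4821 and 6979. The adjusted p-values of the last 3 in limma were 0.0229, 0.0410 and 0.0361. Gm35204 had the largest shift of all called regions, 2.28 (SE 0.50, limma adjusted p = 0.0445), from ranks of 25816 and 27093 to 8004 and 10157, and Gm41996 shifted by 1.61. At Adgrg3, Stk10, Wwox, Creb5, Mras, Rin3 and Gm41996 every Bcat_KO and HOXA9_KO library also ranked better than both WT libraries. At Mras, Bcat_KO had ranks of 8705 and 9271 and HOXA9_KO 7231 and 6342. At Gm35204, Bcat_KO had 21990 and 32955, HOXA9_KO replicate 1 had 16990 and replicate 2 had no peak.

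Ccdc6, known as a fusion partner of RET, had the rise of smallest adjusted p and lay at a start (chr10:70096420-70098099). Its folds were 9.94 and 9.15 in WT and 18.4 and 20.1 in PRMT1_KO, while Bcat_KO had 10.1 and 13.9 and HOXA9_KO 11.5 and 10.6. Its ranks went from 2721 and 3766 to 86 and 68 (shift 1.58, SE 0.12, limma adjusted p = 7.93e-07). Both PRMT1_KO folds were above those of the 6 other paired libraries, and the printed promoter lies inside this region.

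Of the 65 regions called higher, 14 were at an annotated gene start. The regions below, at gene starts or elsewhere, were chosen after their values were seen, except Nfe2. Nfe2, a transcription factor of megakaryocytes and of the list of haematopoietic factors, at an end of the gene, had folds of 9.94 and 9.87 in WT and 15.2 and 15.4 in PRMT1_KO (limma adjusted p = 0.0334). Kmt5c, a methyltransferase of histone H4 lysine, went from 13.4 and 13.4 to 17.6 and 19, and Dennd1c, an exchange factor for Rab35, from 5.42 and 6 to 13.4 and 11.9. In gene bodies, Rad52, a repair protein, went from 9.53 and 8.03 to 16.3 and 19.4, and Ptch1, the Hedgehog receptor, from 8.26 and 9.11 to 16.0 and 19.3. In each, both PRMT1_KO libraries were above both WT libraries. The Bcat_KO and HOXA9_KO libraries were above both WT libraries at these regions too. At Kmt5c, for example, Bcat_KO had 19.2 and 18.3 and HOXA9_KO 18.6 and 19.8.

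The region with the largest fall was Gm10222 (chr1:24612366-24613184), whose folds were 53.7 and 59.7 in WT and 29.1 and 27.4 in PRMT1_KO. It was ranked 2 in both WT lists, and 853 and 923 in PRMT1_KO (shift −2.02, SE 0.09, limma adjusted p = 8.46e-11). Gm10222 is a copy of mitochondrial sequence, so reads may be shared with mitochondrial DNA and the value is uncertain. Bcat_KO had 25.3 and 24.3 and HOXA9_KO 26.5 and 32.1, so the high values were those of WT.

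Myo3a, a motor protein of hair cells, had the second smallest adjusted p among the falls. Its folds were 29.6 and 29.9 in WT and 16.3 and 20.8 in PRMT1_KO, below Bcat_KO with 23.9 and 27.2 and HOXA9_KO with 33.7 and 34.3. Its ranks went from 59 and 50 to 4978 and 2111 (shift −1.72, SE 0.14, limma adjusted p = 1.76e-06). PRMT1_KO was the lowest pair of the 8 libraries at this region.

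The other large falls were of weaker peaks. Fbxo34, an F-box protein, went from ranks of 7966 and 6537 in WT to 23185 and 26307 in PRMT1_KO at 1.57 kb past the gene, and Smtnl1, a regulator of smooth muscle contraction, from 7669 and 10334 to 25094 and 26063. Gm32687, Slco1a6, a transporter, Casp12, a caspase, LOC115490388 and Tmem267 were also among the 10 largest falls, with shifts from −1.67 to −1.03 and limma adjusted p-values from 0.0296 to 0.0495. At starts, Itgb1, the β1 integrin used in niche adhesion, had folds of 11.2 and 10.7 in WT and 9.61 and 7.78 in PRMT1_KO (limma adjusted p = 0.0334). Crbn, a substrate receptor of a ubiquitin ligase, had 15.3 and 17.4 against 15.4 and 16.4, so its rank fell from 751 and 445 to 2639 and 2207 while its folds overlapped between the genotypes.

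Of the 28 regions called lower, 4 lay on chromosome 2 among zinc finger genes and their copies, Gm14393, Gm14305, Gm14295 and Zfp970. Gm14295 fell from folds of 15.3 and 15.5 in WT to 8.06 and 7.41 in PRMT1_KO (shift −1.47, SE 0.23, limma adjusted p = 0.0062), and Bcat_KO had 7.34 and 10.3 and HOXA9_KO 7.95 and 7.28. Zfp970 had 15.5 and 14.8 against 12.7 and 11.8. Within 500 kb of these 4, chosen after seeing them, 9 of 13 shared regions were lower without overlap and 1 was higher, beside 24.7% and 21.8% of all shared regions. The 9 include the 4 called regions around which the stretch was drawn. These genes are near-identical copies, so how reads were placed could move them.

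The stretch from Flt3 to Pan3 on chromosome 5 held several changes side by side, and was singled out after its values were seen. From 1 kb past Flt3 to 1 kb past Pan3, over 211 kb, 18 regions were merged, and PRMT1_KO listed a peak at 17 and 16 of them against 10 and 10 in WT. Of 8 shared regions, 6 were higher without overlap and 0 lower, and 3 were called, beside 21.8%, 24.7% and 0.363% of all shared regions. The stretch was drawn around these changes, so its counts are a description. Another region at Pan3 was opened.

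Inside Flt3 all 5 shared regions had higher ranks in both PRMT1_KO libraries than in either WT library. At the Flt3 start the folds were 13.0 and 10.3 in WT and 15.5 and 16.1 in PRMT1_KO (limma adjusted p = 0.0567). The region 59.2 kb into the gene had 6.88 and 5.65 in WT and 14.5 and 14.6 in PRMT1_KO (shift 1.26, SE 0.21, limma adjusted p = 0.0129). The other 2 uncalled regions of the gene, 7.61 and 37.3 kb in, had limma adjusted p-values of 0.151 and 0.185. At Pan3, the region 128 kb before the Flt3 start had 9.39 and 8.23 in WT and 16.4 and 16.1 in PRMT1_KO (limma adjusted p = 0.0495). Regions at D5Ertd605e and in Pan3 between them overlapped between the genotypes, with shifts of −0.08 and 0.05.

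In the other mutants, compared with the same WT libraries, the folds at the called Flt3 regions were 11.4 and 12.2 in Bcat_KO and 7.96 and 9.85 in HOXA9_KO at 34.0 kb, and 11.8 and 9.99 and 8.92 and 11.2 at 59.2 kb. The part that cell composition within LSK plays in these Flt3 values was not tested. More cells of a type and more open DNA per cell cannot be told apart in bulk libraries.

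**Figure D5:**
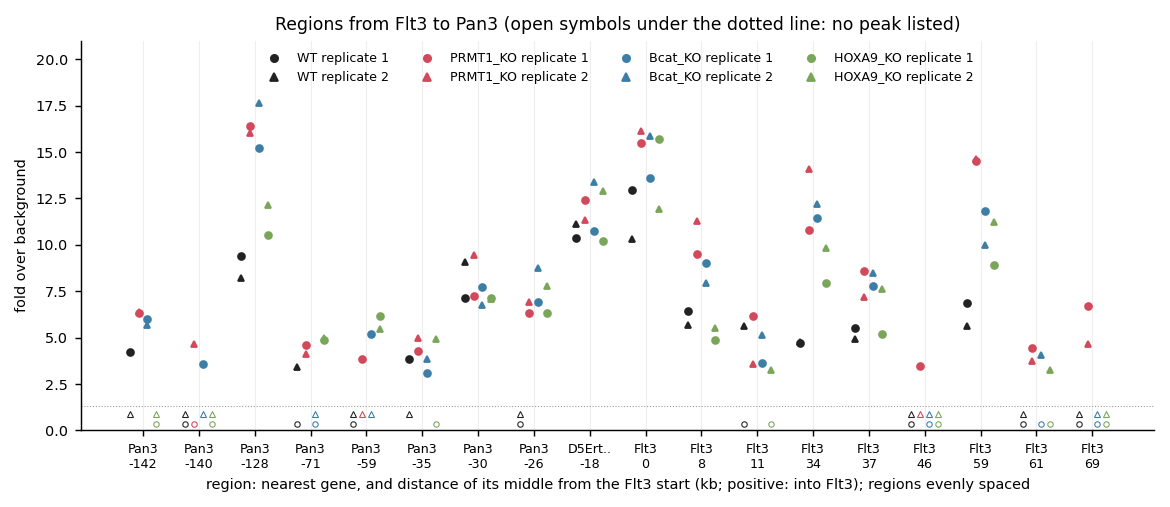
Fold over background in 8 libraries at the 18 merged regions from Flt3 to Pan3, evenly spaced and labelled with the nearest gene and the distance from the Flt3 start. Open symbols mark libraries with no listed peak; PRMT1_KO lies above WT at the regions 34, 59 and −128 kb from the start and at the start itself.

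The fixed lists placed these genes among their pathways. Of 17 shared regions at 7 lymphoid genes, 10 were higher and 3 lower without overlap, where 21.8% and 24.7% of all shared regions were. Of these 10, 5 were the regions of Flt3, and the 2 called higher (0.363% of all) were both at Flt3. The median shift of the 17 was 0.63, beside −0.03 over all regions tested. At 13 myeloid regions the median shift was 0.23, with 7 higher and 4 lower without overlap and 0 called. At 70 regions of haematopoietic transcription factors it was 0.11, with 19 higher and 6 lower without overlap and 1 called, Nfe2, which also belongs to the list of erythroid and megakaryocyte genes. At 14 regions of LSK surface markers the median was 0.13, with 7 higher and 2 lower without overlap, and the 2 called were those of Flt3.

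Lists on cell division and genome upkeep had medians near that of all regions. DNA replication (36 regions, median 0.02), cell cycle (30, 0.00) and p53 and its targets (23, −0.03) held 0 called regions, and so did DNA damage response and repair (24, −0.10). The Wnt list had a median of −0.16 over 21 regions with 0 called, beside its opened regions at Lef1 and Axin1; Axin1 is also on the list of Prmt1 substrates and partners. Interferon response (14, 0.04), mature lineage markers (11, −0.06), Hox cluster and cofactors (10, 0.08), erythroid and megakaryocyte genes (11, −0.09), stromal and endothelial markers (7, −0.13) and Prmt1 substrates and partners (22, 0.01) held no called region other than Nfe2. Of the 7 stromal and endothelial regions, 0 were higher and 4 lower without overlap, beside 21.8% and 24.7% of all shared regions. In these lists no test over the list was made, so a median near 0 does not show that their regions did not move.

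Prmt1 itself kept an open promoter. The region at its start (chr7:44986095-44987184) had folds of 11.8 and 14.3 in WT and 16.2 and 17.6 in PRMT1_KO. Its ranks were 1883 and 1131 in WT and 410 and 427 in PRMT1_KO, with no overlap, and the shift was 0.55 (SE 0.13, limma adjusted p = 0.0631). Accessibility at a start does not check a deletion elsewhere in the gene, so the genotype rests on the labels.

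The other arginine methyltransferases showed no called shift in limma. Over 8 regions of the family, Prmt1 included, the median shift was −0.12. Of the 8, 2 were higher and 2 lower without overlap, beside 21.8% and 24.7% of all shared regions. Carm1, which also makes asymmetric dimethylarginine, had folds of 12.7 and 11.8 in WT and 15.3 and 14.7 in PRMT1_KO (shift 0.22, SE 0.14, limma adjusted p = 0.455). Prmt5, the main enzyme of symmetric dimethylation, had 12.1 and 13.4 against 14.1 and 15.6, with a shift of −0.08, and Prmt3 had 14.6 and 14.7 against 15.2 and 14.7, with −0.21.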

How the data were processed

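ATAC-seq peak lists of 9 LSK libraries were used, 4 of them for the comparison. Per the labels, each library was made from 50000 cells, tagmented for 30 min at 37 °C, amplified over 10 cycles and enriched for fragments of 170 to 800 bp. Per the submitters' processing notes the reads were processed with Bowtie2 2.4.2, SAMtools 1.14, Picard 2.27.4 and MACS2 on GRCm38 (mm10). How peaks were filtered, and whether replicates were pooled, is not given in the sources used here; each library has its own list. The deposited lists give for each peak a score, a fold (a ratio over local background), a −log10 p and a −log10 q of the authors' peak caller, and no counts, so values are compared between libraries by rank.

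Only chromosomes 1 to 19 were used. Ties in −log10 p were broken by fold and position, and the strongest peak stood for a region in each library. Whole summit reads were recovered from fold and −log10 p within 0.01 of a whole number, except in dKO. Places were taken from RefSeq GRCm38.p6: gene end, within 1 kb of either end of a gene (the plan named gene starts, but strands are not known for all genes, as 16457 of 20665 coding autosomal genes have a promoter entry), then gene body, within 50 kb, and farther away. Normal scores of ranks were tested with limma 3.58.1 (R 4.3.3, mean-spread trend, threshold 0.05), and group values with two-sided exact permutation tests in Python 3.11.15. On simulated scores the test called 61% of 100 regions moved by 1 score unit and 89% of 100 moved by 2, with 8 calls among regions not moved. The simulated spread followed the mean score by design, so these figures do not test how far the calls rest on that trend.

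Named regions were the 12 closed and 20 opened of best mean rank, the 10 largest called shifts each way, all at genes of 16 lists, those at the thresholds, and Prmt1; others are marked. Members, lists and tests were chosen with earlier results of these data known. A −log10 p depends on depth, so ranks within lists of equal length were used, and the number of libraries limits the precision. Some marker genes of the check for mature lineages are not reported here.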

Additional observations from a re-analysis of the deposited data

Results flagged for a closer look

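Chromosome Y below 90 Mb was outside the comparison and held 12 peaks in PRMT1_KO replicate 1 and 12 in PRMT1_KO replicate 2, against 0 in both WT libraries. Peaks at Xist, which lies on chromosome X and was also outside the comparison, numbered 2 in WT replicate 1 and 2 in WT replicate 2, against 0 in both PRMT1_KO libraries. Sex and genotype cannot be told apart in this comparison.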

How the results depend on the processing

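The 28 closed and 80 opened regions became 41 and 121 with peaks ranked by fold, 8 and 34 at −log10 q of at least 5, 0 and 6 with the top N/4, and 18 and 497 in the lists as deposited. They were 28 and 81, 27 and 80, and 28 and 72 with a stricter overlap (0.5 of the shorter peak), with ranks among all chromosomes and without narrow regions. With a library left out the ranges were 68 to 208 for closed and 200 to 339 for opened regions. The 65 higher and 28 lower shifts were 4 and 2 by fold, 0 and 0 without the trend, and 170 and 53 with the spread of all 8 libraries. They were 93 and 34 in the top N/2, of which 62 were among the reported calls. Leaving out a library gave 44 to 134 higher and 5 to 132 lower shifts, with 5 lower without WT replicate 2, 16 without WT replicate 1, 128 without PRMT1_KO replicate 1 and 132 without PRMT1_KO replicate 2; the lone library is then assumed to vary like the other group. Same-numbered libraries share only a number (correlation of their deviations 0.03), and with the replicate as a block there were 42 higher and 18 lower shifts, 59 of them among the reported calls. Of the 20 named shifts, 12 passed with the block, among them those at Flt3, Adgrg3, Ccdc6, Gm10222 and Myo3a. None of the 20 reversed, but this could hardly come out otherwise. The block leaves the size of a shift as it was. Where the ranks of the groups do not overlap, dropping a library cannot change the sign. The causes were not tested. The differences in peak number (6673 to 13720 when a library was left out), in the gene-end share (−2.74 to −2.03 percentage points, and −6.31 with the lists as deposited) and in the far share (−0.17 to −0.05, lists as deposited included) kept their direction. With starts from the promoter table, an alternative added after seeing the data, the gene-end share differed by −2.04 points. Motif shares at summits were not run, for want of a genome.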

Other observations

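Regions called higher in PRMT1_KO by limma were unevenly spread over the chromosomes. Chromosome 18 held 9 of the 65 and 0 of the 28 called lower, with 3.2% of the shared regions, and 1.57% of its shared regions were called higher beside 0.363% over all chromosomes. They lay at Egr1, an immediate-early transcription factor, Alpk2, Cables1, Ldlrad4, Ctif (at 2 regions), Kctd16, Etf1 and Gm2629. At the Egr1 region, 4.61 kb from the gene, the folds were 3.66 and 3.44 in WT and 5.73 and 8.0 in PRMT1_KO, and at Kctd16 they were 21.7 and 21.5 against 26.1 and 31.3. At both regions every Bcat_KO and HOXA9_KO library was above both WT libraries as well. Chromosome 2 held 7 of the 28 called lower and 1 of the 65 called higher, with 8.22% of the shared regions. Of its shared regions 0.475% were called lower and 0.0679% higher, beside 0.156% and 0.363% over all chromosomes. The 7 include the 4 among near-identical zinc finger genes, where the placing of reads is uncertain. These spreads over chromosomes were noticed after the values were seen and have no test.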
